A study of Mus musculus with 2 samples.

Results

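Integrins are cell surface receptors made of 1 α and 1 β subunit that link the extracellular matrix to the actin cytoskeleton. An α subunit reaches the membrane only together with a β partner, and the pairing sets the ligand: pairs with β1 bind collagens, laminins or fibronectin, and pairs of αv bind vitronectin, fibronectin or latent TGF-β. In blood vessels these receptors hold endothelial cells and pericytes to the basement membrane that both cell types share. The 10 subunit genes described here (Itga1, Itga3, Itga5, Itga6, Itga7, Itga8, Itgav, Itgb1, Itgb3 and Itgb5) were taken as a given list and matched by Ensembl identifier in both count tables, where they were 10 of 27040 genes listed in both.

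The cells came from the stria vascularis (SV), an epithelium in the lateral wall of the cochlea that is crossed by capillaries. Reporter mice of both sexes were used, aged 1 to 3 months. One library was made from Tie2-GFP mice, in which the promoter of Tek, an endothelial receptor gene, drives GFP, and the other from NG2-DsRed mice, in which the promoter of Cspg4, the gene of the proteoglycan NG2, drives DsRed. Each library pooled 20 cochleae of 10 mice, and cells were sorted for fluorescence where enrichment was needed, with no statement of whether these libraries were. Every group is thus 1 library and no difference can be tested against a spread between replicates. Intervals below are 95% intervals that cover counting error alone.

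The Tie2-GFP library held 633 barcodes with 5432289 unique molecular identifiers (UMIs) and the NG2-DsRed library 201 barcodes with 1232599 UMIs, and the libraries shared 0 barcodes. A barcode was endothelial with a UMI of at least 4 of Pecam1, Cdh5, Cldn5, Flt1, Egfl7 and Ramp2. It was mural, the class of pericytes (PCs) and smooth muscle, with at least 3 of Pdgfrb, Rgs5, Vtn and Notch3 and at most 1 endothelial gene, and intermediate, the melanocyte-like cell of the SV, with all of Dct, Tyr and Kcnj10. This gave 368 endothelial and 84 intermediate barcodes in Tie2-GFP and 54 endothelial, 94 mural and 23 intermediate barcodes in NG2-DsRed. Only 2 mural barcodes were in Tie2-GFP and were not used, and 2 barcodes of NG2-DsRed that met both the endothelial and the intermediate rule were left out.

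The class names were checked against genes outside the rules. All 6 further endothelial markers (Kdr, Tek, Emcn, Esam, Vwf and Cd34) were found in at least 10% of endothelial barcodes of both libraries, and all 7 further mural markers (Cspg4, Des, Kcnj8, Abcc9, Acta2, Tagln and Myh11) in at least 10% of mural barcodes. Of the endothelial markers, 2 also passed in mural barcodes, Esam at 478 UMIs per 1000000 (CPM) against 597 CPM in endothelial barcodes of NG2-DsRed and Emcn at 128 CPM against 478 CPM. The 7 mural markers all passed in endothelial barcodes of NG2-DsRed, and Cspg4 passed in intermediate barcodes, at 56.4 CPM in Tie2-GFP and 135 CPM in NG2-DsRed. Of 5 further intermediate markers, 3 passed that share in both libraries, while Tyrp1 had 0 UMIs in intermediate barcodes. The mural rule genes summed to 17515 CPM in mural barcodes, 4892 CPM in endothelial barcodes of NG2-DsRed and 869 CPM in those of Tie2-GFP. Median depth was 7503 UMIs per barcode in endothelial barcodes of Tie2-GFP, 9010 in those of NG2-DsRed, 3018 in mural barcodes, and 15340 and 10383 in intermediate barcodes of Tie2-GFP and NG2-DsRed.

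Promoter sequence is given for the common β subunit and for the 3 subunits whose levels set the classes apart most plainly among those with an entry. Each window holds the 250 bases before the RefSeq start in GRCm38.p6, 5′ to 3′ on the gene's strand, with matches of the searched motifs in capitals. The windows are chr8:128685404-128685653 (plus strand) for Itgb1, chr13:115101965-115102214 (minus) for Itga1, chr2:83724147-83724396 (plus) for Itgav and chr16:33829415-33829664 (plus) for Itgb5.
Itgb1: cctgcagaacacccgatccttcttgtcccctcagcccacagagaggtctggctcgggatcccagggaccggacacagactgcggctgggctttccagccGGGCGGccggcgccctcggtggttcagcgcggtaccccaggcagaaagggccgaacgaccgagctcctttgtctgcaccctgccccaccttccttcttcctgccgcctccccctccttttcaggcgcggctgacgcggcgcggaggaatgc
Itga1: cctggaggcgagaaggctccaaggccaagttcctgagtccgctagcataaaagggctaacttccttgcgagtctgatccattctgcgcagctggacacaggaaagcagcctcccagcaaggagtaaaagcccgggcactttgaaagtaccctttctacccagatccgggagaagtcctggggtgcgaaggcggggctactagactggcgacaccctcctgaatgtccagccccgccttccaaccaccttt
Itgav: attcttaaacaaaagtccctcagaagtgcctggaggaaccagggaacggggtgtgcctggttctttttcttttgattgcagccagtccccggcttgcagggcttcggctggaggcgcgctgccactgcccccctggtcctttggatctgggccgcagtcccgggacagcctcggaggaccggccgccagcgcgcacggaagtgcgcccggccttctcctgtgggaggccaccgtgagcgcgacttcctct
Itgb5: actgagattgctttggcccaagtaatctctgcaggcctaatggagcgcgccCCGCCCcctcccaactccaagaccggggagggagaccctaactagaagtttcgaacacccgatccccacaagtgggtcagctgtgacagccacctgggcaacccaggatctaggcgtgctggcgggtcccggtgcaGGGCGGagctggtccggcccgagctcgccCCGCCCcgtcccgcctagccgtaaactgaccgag

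The capitals mark GGGCGG (GC box) or its reverse complement CCGCCC, with 1 match before Itgb1 and 3 before Itgb5. No match of the GC box, of CCGGAA (an ETS motif), of CACGTG (E-box) or of CATGTG (E-box of the MITF type) lay in the windows of Itga1 and Itgav. Both strands were searched. Each motif was searched at its full 6 bases, and shorter forms such as GGAA, which both windows hold, were not counted. Over all 32851 promoter windows of this length, the GC box was in 32.7%, CCGGAA in 12.0%, CACGTG in 6.02% and CATGTG in 12.3%. GC content was 68% before Itgb1, 65.2% before Itgb5, 64.4% before Itgav and 57.6% before Itga1. Of the other members with an entry, Itga5 had 2 GC boxes and Itga8 had no match. The first of the windows of Itga3 had 3 GC boxes and 1 match of CCGGAA, and its other window had 1 GC box and 1 match of CATGTG. These letters describe the windows and carry no measurement of factor binding.

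Itgb1, the β subunit that most α subunits here pair with (ENSMUSG00000025809, chr8:128685654-128733200 of GRCm38), was the member found most evenly. It was at 368 CPM (348 to 390) in endothelial barcodes of Tie2-GFP, 442 CPM (386 to 504) in those of NG2-DsRed, 850.4 CPM (752 to 958) in mural barcodes, and 302 CPM (272 to 334) and 278 CPM (216 to 352) in intermediate barcodes of Tie2-GFP and NG2-DsRed. A UMI of Itgb1 was found in 86.1%, 83.3%, 86.2%, 84.5% and 82.6% of the barcodes in the same order. The mural level stood above all others, whose neighbouring intervals overlapped apart from those of endothelial and intermediate barcodes in Tie2-GFP. After each barcode was thinned to 2000 UMIs, the expected share was 78.2% in mural barcodes and 38% to 53.0% in the other classes, so the equal shares went with unequal depths.

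Among the collagen and laminin receptors, the collagen receptor subunit was common to both vascular classes and the laminin receptor subunits differed between them. Itga1 (ENSMUSG00000042284, chr13:114953096-115101964), whose product binds collagen IV, was at 222 CPM (206 to 239) in endothelial barcodes of Tie2-GFP, 117 CPM (88.5 to 151) in those of NG2-DsRed and 466 CPM (394 to 547) in mural barcodes. It had 0 UMIs in the 84 intermediate barcodes of Tie2-GFP, which allows up to 2.49 CPM and up to 3.57% of barcodes, and 1 UMI (4.08 CPM) in the 23 of NG2-DsRed. Itga1 was thus shared by endothelial and mural barcodes and close to 0 in the intermediate class, and the share found was 66.8% of endothelial barcodes in Tie2-GFP, 46.3% in NG2-DsRed and 61.7% of mural barcodes.

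Itga6 (ENSMUSG00000027111, chr2:71745616-71858416), the α subunit of the laminin receptors α6β1 and α6β4, was the most sharply endothelial member. Its level was 456 CPM (433 to 479) in endothelial barcodes of Tie2-GFP and 251 CPM (209 to 299) in those of NG2-DsRed. A single UMI (3.13 CPM) was found among 94 mural barcodes, and intermediate barcodes held 30.7 CPM (21.6 to 42.3) in Tie2-GFP and 0 UMIs in NG2-DsRed, where 0 allows 12.2 CPM. It was found in 87.0% and 68.5% of endothelial barcodes, in 1.06% of mural and in 28.6% of intermediate barcodes of Tie2-GFP. The intervals of the endothelial levels overlapped with those of no other class.

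The intermediate level of Itga6 in Tie2-GFP was 6.73% of the endothelial level in the same library. The 6 endothelial rule genes and the 6 further endothelial markers were there at 0% (Cdh5, Kdr and Tek) to 1.44% (Ramp2, 9 UMIs) of their endothelial level. The 36 of its 37 UMIs that were in barcodes without a UMI of the marginal cell genes Kcnq1, Kcne1 and Esrrb gave 33.5 CPM.

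Itga7 (ENSMUSG00000025348, chr10:128933818-128958282), a laminin receptor subunit best known from muscle, had the reverse pattern. It was at 250.1 CPM (198 to 311) in mural barcodes, at 3.35 CPM (1.67 to 5.99) in endothelial barcodes of Tie2-GFP and at 40.2 CPM (24.5 to 62.1) in those of NG2-DsRed. Intermediate barcodes held 1 UMI in Tie2-GFP (0.829 CPM) and 0 in NG2-DsRed. A UMI was found in 52.1% of mural barcodes and in 2.17% and 20.4% of endothelial barcodes of Tie2-GFP and NG2-DsRed, so the endothelial value differed between libraries.

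Itga3 (ENSMUSG00000001507, chr11:95044474-95076801), also a laminin receptor subunit, was low in every class. Its level was 28.3 CPM (22.9 to 34.7) and 16.1 CPM (6.94 to 31.7) in endothelial barcodes of Tie2-GFP and NG2-DsRed, 3.13 CPM in mural barcodes (1 UMI), and 4.14 CPM (5 UMIs) and 4.08 CPM (1 UMI) in intermediate barcodes. Only the endothelial level of Tie2-GFP had an interval clear of the mural one.

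**Figure D1:**
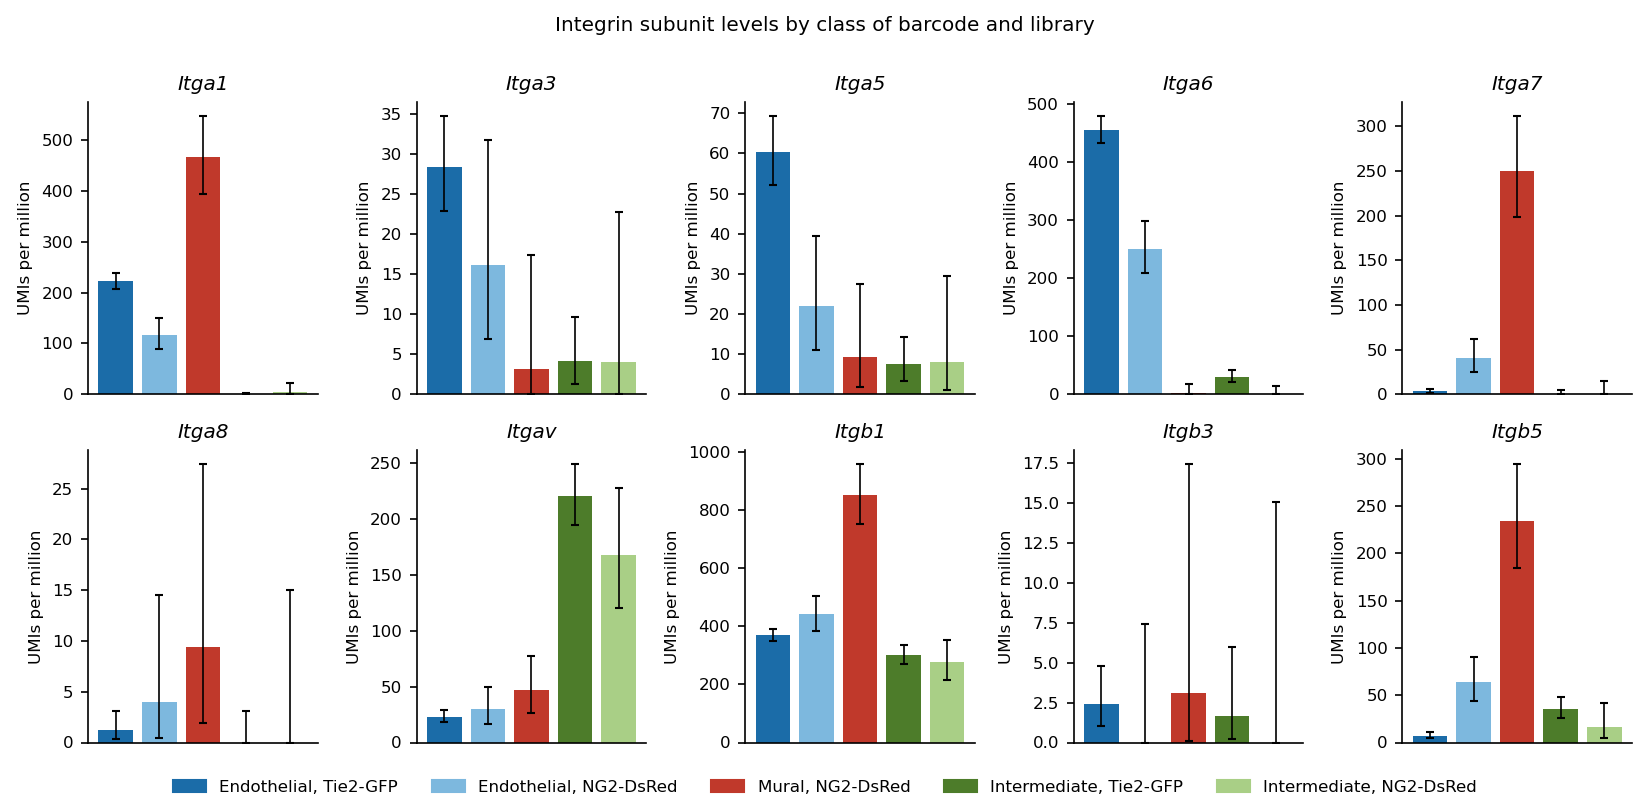
Level of each integrin subunit in CPM (vertical axes, 1 scale per gene) in 5 classes of barcode (bar colours), with exact 95% Poisson intervals. Itga6 stood at 456 and 251 CPM in endothelial bars against 3.13 in the mural bar, Itga7 and Itgb5 were highest in the mural bar, and Itgav was highest in both intermediate bars.

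Among the receptors for the RGD motif of fibronectin and vitronectin, Itga5 (ENSMUSG00000000555, chr15:103344286-103366763), which makes the fibronectin receptor α5β1, was highest in endothelial barcodes. It was at 60.3 CPM (52.2 to 69.3) in those of Tie2-GFP and 22.1 CPM (11 to 39.5) in those of NG2-DsRed, against 9.38 CPM in mural barcodes (3 UMIs), 7.46 CPM (9 UMIs) and 8.16 CPM (2 UMIs) in intermediate barcodes. The mural and intermediate intervals overlapped each other and that of endothelial barcodes of NG2-DsRed. Only the endothelial level of Tie2-GFP stood clear of them. Itga8 (ENSMUSG00000026768, chr2:12106632-12301922), the partner of nephronectin in other organs, had 4 UMIs in endothelial barcodes of Tie2-GFP, 2 in those of NG2-DsRed, 3 in mural and 0 in intermediate barcodes, and no order of its levels can be read.

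Itgav (ENSMUSG00000027087, chr2:83724397-83806916), the α subunit that pairs with β1, β3 and β5, marked the intermediate class. Its level was 220.5 CPM (195 to 249) in intermediate barcodes of Tie2-GFP and 167 CPM (120.1 to 227) in those of NG2-DsRed. Mural barcodes held 46.9 CPM (26.2 to 77.4), and endothelial barcodes 22.8 CPM (18.0 to 28.6) and 30.1 CPM (16.9 to 49.7) in Tie2-GFP and NG2-DsRed. It was found in 82.1% and 78.3% of intermediate barcodes, against 15.5% and 24.1% of endothelial and 14.9% of mural barcodes. The intermediate class was highest in both libraries, and the mural and endothelial intervals overlapped.

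Of the other β subunits, Itgb3 (ENSMUSG00000020689, chr11:104608000-104670476) was at or near 0: 8 UMIs in endothelial barcodes of Tie2-GFP, 1 in mural, 2 in intermediate barcodes of Tie2-GFP, and 0 in both other classes. Itgb5 (ENSMUSG00000022817, chr16:33829665-33949338), which pairs with αv in a vitronectin receptor, was at 234 CPM (184 to 294) in mural barcodes. Endothelial barcodes held 7.31 CPM (4.68 to 10.9) in Tie2-GFP and 64.3 CPM (44.0 to 90.8) in NG2-DsRed, and intermediate barcodes 35.6 CPM (25.8 to 48.0) and 16.3 CPM (4.45 to 41.8). As with Itga7, the mural level was the highest and the endothelial level differed between libraries.

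Counted over the list, 6 members were found in at least 10% of endothelial barcodes of Tie2-GFP, where 26.7% of all genes were. The number was 8 in endothelial barcodes of NG2-DsRed (28.4% of all genes), 5 in mural barcodes (18.2%), and 5 and 2 in intermediate barcodes of Tie2-GFP (30.1%) and NG2-DsRed (27.7%). Itgb1 and Itgav were the members past this share in all 5 classes.

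The main comparison set endothelial barcodes of Tie2-GFP against mural barcodes of NG2-DsRed, where class and library differ together and cannot be told apart. A gene was counted as higher or lower when the classes together held at least 20 UMIs and the levels lay at least 2-fold apart. Of 8 members with enough UMIs, 3 were higher in endothelial barcodes, where 18.4% of 9702 genes were, and 5 were lower, where 24.1% were. The median log2 ratio was -1.05 over the members and -0.22 over all genes.

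The higher members were α subunits of laminin and fibronectin receptors. Itga6 was 146-fold higher (log2 7.19, 4.71 to 12.49), Itga3 9.06-fold (log2 3.18, 0.67 to 8.50) and Itga5 6.43-fold (log2 2.68, 1.12 to 4.97), with mural counts of 1, 1 and 3 UMIs. The lower members were Itga7 at log2 -6.22 (-7.28 to -5.31) and Itgb5 at -5.00 (-5.73 to -4.32), followed by Itgb1 at -1.21 (-1.40 to -1.01), Itga1 at -1.07 (-1.32 to -0.80) and Itgav at -1.04 (-1.85 to -0.13). For Itga3, Itga1 and Itgav the interval reached values under 2-fold.

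Within NG2-DsRed, where both classes come from 1 library, 1 of 6 members with enough UMIs was higher in endothelial barcodes (14% of 6217 genes) and 3 were lower (16.2%). Itga6 was again higher, at log2 6.33 (3.82 to 11.64), and Itga7 at -2.64 (-3.42 to -1.92), Itga1 at -2.0 (-2.46 to -1.55) and Itgb5 at -1.87 (-2.51 to -1.25) were lower. Itgb1 at -0.94 (-1.21 to -0.68) was just inside the 2-fold limit, and Itgav at -0.64 (-1.77 to 0.50) had an interval that included 0. The direction of all 6 was the same as between libraries. All ratios but that of Itga1 were nearer 0, those of Itga7 and Itgb5 by the most. The ratio of Itga1 was farther from 0, with an interval clear of the one between libraries.

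**Figure D2:**
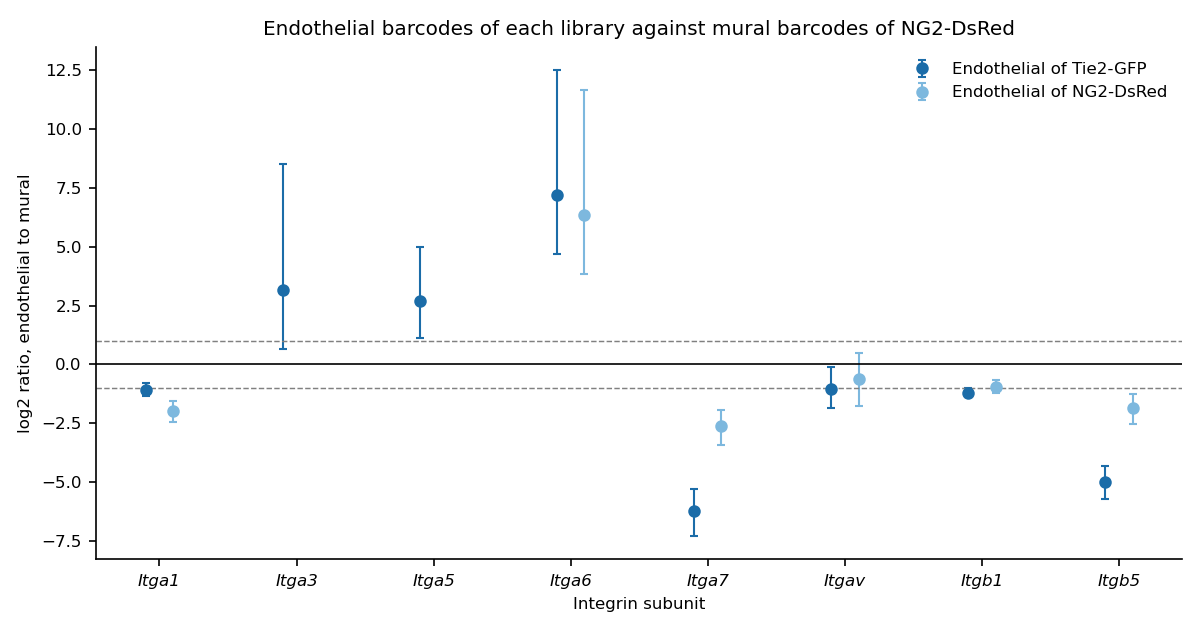
Log2 ratio of the endothelial to the mural level (vertical axis) for 8 integrin subunits, for endothelial barcodes of Tie2-GFP (dark) and of NG2-DsRed (light, 6 subunits with at least 20 UMIs), with exact conditional 95% intervals and dashed lines at 2-fold. Itga6 lay above 6 in both, and Itga7 moved from -6.22 to -2.64 and Itgb5 from -5.00 to -1.87 when the library was the same.

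The mural signal in endothelial barcodes moved with Itga7 and Itgb5. Of the 4 mural rule genes, at most 1 was found in 338 endothelial barcodes of Tie2-GFP and 16 of NG2-DsRed, and at least 3 in 24 and 29. With at most 1, Itga7 had 0 UMIs in both libraries and Itgb5 had 3 UMIs (1.07 CPM) in Tie2-GFP and 0 in NG2-DsRed. With at least 3, Itga7 was at 24.7 and 60.3 CPM and Itgb5 at 44.4 and 92.1 CPM.

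In those 29 barcodes of NG2-DsRed, Itga7 was at 24.1% and Itgb5 at 39.3% of the mural level. The 4 mural rule genes, which chose these barcodes, ranged from 19.8% (Vtn) to 53.8% (Rgs5), and the 7 further mural markers from 11.3% (Acta2) to 31.2% (Des). Median depth was 10655 UMIs there, against 6203 in the 16 barcodes with at most 1 mural gene. Whether these barcodes held RNA of more than 1 cell was not tested. Between the groups with at least 3 and at most 1 mural gene in NG2-DsRed, 2 of 4 members with enough UMIs were higher (12.1% of 3764 genes) and none of these 4 was lower (6.06%). Itgb5 was at least 3.52-fold higher and Itga1 was at 159 against 52.4 CPM (log2 1.60, 0.38 to 3.11), while Itga6 was at 314 and 235 CPM (log2 -0.42, -1.01 to 0.20). Here and below, a fold given as at least a value sets the class without UMIs to 3 counts. It leaves out the counting error of the other class.

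Endothelial barcodes of both libraries were also set against each other. Of 8 members, Itga5 was higher in Tie2-GFP (log2 1.45, 0.58 to 2.47), where 11.8% of all genes were, and Itga7 (-3.58, -4.79 to -2.45) and Itgb5 (-3.14, -3.96 to -2.33) were lower, where 13.5% were. With at most 1 mural gene in both, 1 of 6 members was higher in Tie2-GFP (12% of genes), namely Itga1 at log2 2.01 (0.88 to 3.46), on 6 UMIs in NG2-DsRed, and none of these 6 was lower (14%). Against mural barcodes, endothelial barcodes of NG2-DsRed with at most 1 mural gene had 1 of 5 members higher (14.9%), Itga6 at 6.65 (4.08 to 11.99), and 4 lower (25.7%): Itga1 at -3.15 (-4.62 to -2.0), Itgb1 at -1.65 (-2.24 to -1.11), Itga7 at least 9.55-fold and Itgb5 at least 8.96-fold.

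Intermediate barcodes were compared with endothelial barcodes within each library. In Tie2-GFP, 2 of 7 members were higher in intermediate barcodes (19.6% of 10191 genes), Itgav at log2 3.27 (2.90 to 3.66) and Itgb5 at 2.29 (1.53 to 3.07). Lower were 4 members (28.9%): Itga1 by at least 89.4-fold, Itga6 at -3.89 (-4.41 to -3.42), Itga5 at -3.01 (-4.16 to -2.06) and Itga3 at -2.77 (-4.43 to -1.50). Itgb1 stood at -0.29 (-0.46 to -0.12), inside the 2-fold limit.

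In NG2-DsRed, 1 of 6 members was higher in intermediate barcodes (17.2%), again Itgav at log2 2.47 (1.59 to 3.43). Lower were 4 (27.8%): Itga6 by at least 20.5-fold, Itga7 by at least 3.28-fold, Itga1 at -4.84 (-10.16 to -2.30) on 1 UMI, and Itgb5 at -1.98 (-3.94 to -0.48). Itgav, Itga1 and Itga6 had the same direction in both libraries, and Itgb5 did not.

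Marginal cell genes moved with Itgb5 in the intermediate class. The 11 intermediate barcodes of Tie2-GFP with a UMI of Kcnq1, Kcne1 or Esrrb held 28 of the 43 Itgb5 UMIs, at 211 CPM (140.2 to 305), and the other 73 held 15, at 14.0 CPM (7.82 to 23.0). Those 3 genes summed to 912 CPM in the 11 barcodes and had 0 UMIs in the intermediate barcodes of NG2-DsRed. The 11 barcodes also had a higher median mitochondrial share, 23.3% against 9.09% in the other 73. Their median depth was lower, 10886 against 15955 UMIs. The part of these differences in the Itgb5 levels was not tested. Without the 11 barcodes the ratio of Itgb5 to endothelial barcodes was log2 0.93 (-0.10 to 1.92), and 1 member was higher (19.2%) and 4 lower (29.2%). This ratio was taken to all endothelial barcodes of Tie2-GFP, also those with mural genes. In the 338 of them with at most 1 mural gene, Itgb5 was at 1.07 CPM on 3 UMIs. Itgav was at 232 CPM in intermediate barcodes without the 11 and at 128 CPM in the 11.

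Against mural barcodes of NG2-DsRed, 1 of 5 members was higher in intermediate barcodes (17.5% of 4950 genes), Itgav at log2 1.84 (0.95 to 2.80). Lower were 4 (27.2%): Itga7 by at least 20.4-fold, Itga1 at -6.83 (-12.15 to -4.33) on 1 UMI, Itgb5 at -3.84 (-5.76 to -2.43) and Itgb1 at -1.62 (-2.02 to -1.23). Between the intermediate barcodes of both libraries, 2 of 4 members were higher in Tie2-GFP (10.8%) and none of these 4 was lower (12.7%). They were Itga6, with 37 against 0 UMIs, and Itgb5 at log2 1.13 (-0.33 to 3.07), whose interval included 0. The fold of Itga6 was 2.5 with 3 counts put for the 0, which leaves out the counting error of the 37 UMIs. Its distance from the 2-fold limit is thus not secure. Without the 11 barcodes with marginal cell genes Itgb5 was at 14.0 CPM in Tie2-GFP against 16.3 CPM in NG2-DsRed, so it was then no longer higher.

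Intermediate barcodes carried a median of 9.36% mitochondrial UMIs in Tie2-GFP and 5.55% in NG2-DsRed, and only 6 of 84 and 7 of 23 were within the limit of 5% applied to the vascular classes. Within that limit the ratio to endothelial barcodes of Tie2-GFP was log2 2.65 for Itgav, 1.88 for Itgb5 and -4.08 for Itga6. Itga1, Itga3 and Itga5 had 0 UMIs in the 6 barcodes, where the limit of 3 counts puts their ratios at -3.05, -0.08 and -1.17. These values are bounds set by the few UMIs, and a count of 0 could not be counted as 2-fold lower for Itga3 there. The ratios of Itgb5 and Itga6 lay where about 3 counts in the 6 barcodes put them, and no intervals are given for them. An excess of Itgb5 within the mitochondrial limit thus rests on a few UMIs.

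The pairs that a cell could build were read from barcodes with a UMI of both subunits. Of 9 known heterodimers of the listed subunits, endothelial barcodes of Tie2-GFP had 5 in at least 10% of barcodes. α6β1 was found in 78.0% (73.4 to 82.1), α1β1 in 60.6% (55.4 to 65.6), α5β1 in 33.4% (28.6 to 38.5), α3β1 in 18.2% (14.4 to 22.5) and αv with β1 in 13.9% (10.5 to 17.8). The laminin receptor α6β1 and the collagen receptor α1β1 were thus the most frequent, and both transcripts sat with Itgb1 in 56.0% (50.7 to 61.1) of these barcodes. The product of the single shares was 74.9% for α6β1, 57.6% for α1β1 and 50.1% for Itga1, Itga6 and Itgb1 together. The pair shares thus largely restate how often each subunit was found. No share over other gene pairs was computed beside the counts of pairs.

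Endothelial barcodes of NG2-DsRed had 7 pairs past that share. α6β1 at 59.3% (45.0 to 72.4) and α1β1 at 40.7% (27.6 to 55.0) led here too, followed by αvβ1 at 24.1%, α7β1 at 20.4%, α3β1 and αvβ5 at 13.0% each and α5β1 at 11.1%. The product of the single shares was 57.1% for α6β1 and 38.6% for α1β1. In the 16 barcodes with at most 1 mural gene, α7β1 and αvβ5 were found in 0 of 16, which allows up to 18.8%, α6β1 in 50.0% (24.7 to 75.3) and α1β1 in 25% (7.27 to 52.4).

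Mural barcodes had 3 pairs past the share. α1β1 was found in 56.4% (45.8 to 66.6), α7β1 in 43.6% (33.4 to 54.2) and αvβ1 in 12.8% (6.77 to 21.2), with αvβ5 just under it at 9.57% (4.47 to 17.4). α6β1, α3β1 and α5β1 were in 1.06%, 1.06% and 2.13%. The product of the single shares was 53.2% for α1β1 and 44.9% for α7β1. Mural and endothelial barcodes both carried the collagen receptor transcripts and held different laminin receptor α subunits, Itga7 in the mural and Itga6 in the endothelial class.

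Intermediate barcodes of Tie2-GFP had 4 pairs past the share, with αvβ1 first at 73.8% (63.1 to 82.8). α6β1 was found in 28.6% (19.2 to 39.5), αvβ5 in 19.0% (11.3 to 29.1) and α5β1 in 10.7% (5.02 to 19.4). In NG2-DsRed 1 pair passed, αvβ1 at 65.2% (42.7 to 83.6). The product of the single shares for αvβ1 was 69.4% in Tie2-GFP and 64.7% in NG2-DsRed. The collagen receptor α1β1 was found in 0 of 84 and 0 of 23 intermediate barcodes, which allows shares of up to 3.57% and 13.0%.

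αvβ3, an integrin of angiogenic vessels, was not found in endothelial or mural barcodes: 0 of 368 in Tie2-GFP, which allows up to 0.815%, 0 of 54 and 0 of 94 in NG2-DsRed, which allow 5.56% and 3.19%. It was found in 2 of 84 and 0 of 23 intermediate barcodes. These limits concern barcodes with a UMI of both genes and not cells that make the receptor. Itgb3 itself was found in 7 of 368, 0 of 54 and 1 of 94 endothelial and mural barcodes. The product of the single shares was 0.295%, 0% and 0.158% there, so the lack of pairs cannot be read as absence of the receptor. Some of the lowest shares above 0 rested on 1 barcode each. Among them were 1.06% for Itga6 in mural and 1.19% for Itga7 in intermediate barcodes of Tie2-GFP, at median depths of 3018 and 15340 UMIs. Whether such single UMIs came from free RNA was not tested.

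Fewer pairs passed the share once barcodes were thinned to equal depth, while the leading pair of each class stayed the same. At 2000 UMIs per barcode, leaving out the shallower barcodes (15 endothelial and 2 intermediate of Tie2-GFP, 18 mural and 1 intermediate of NG2-DsRed), the expected share of α6β1 was 27.7% and of α1β1 16.1% in endothelial barcodes of Tie2-GFP. In mural barcodes α1β1 was expected in 41.5% and α7β1 in 30.4%, and in intermediate barcodes of Tie2-GFP αvβ1 in 16.3% and α6β1 in 3.33%. α6β1 was expected in 18.1% of endothelial barcodes of NG2-DsRed and αvβ1 in 10.4% of intermediate barcodes of NG2-DsRed. The pairs at 10% or more were then 2 in endothelial barcodes of Tie2-GFP, 1 in those of NG2-DsRed, 2 in mural barcodes and 1 in each intermediate class.

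**Figure D3:**
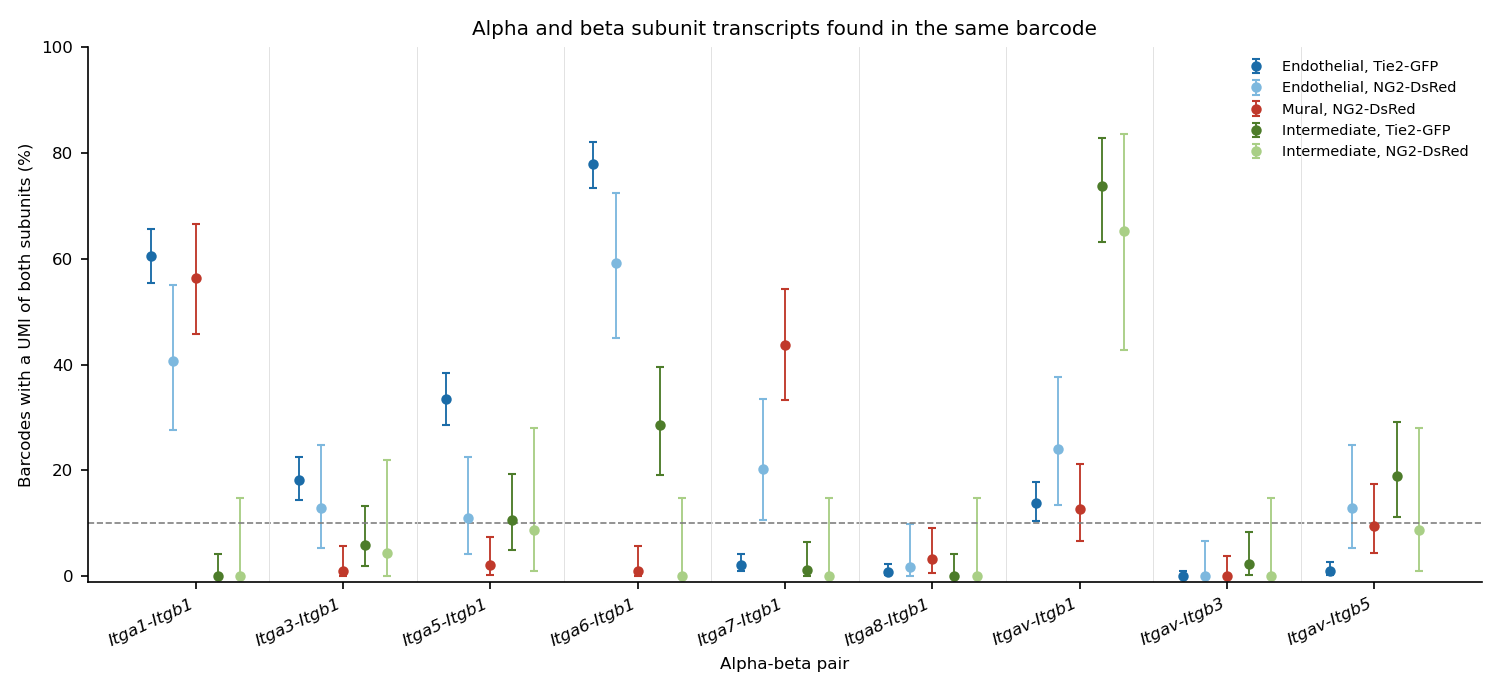
Share of barcodes (%, vertical axis) with a UMI of both subunits of each α-β pair (horizontal axis) in 5 classes of barcode (colours), with Clopper-Pearson 95% intervals and a dashed line at 10%. α6β1 was at 78.0% and 59.3% in endothelial barcodes, α7β1 at 43.6% in mural barcodes, and αvβ1 at 73.8% and 65.2% in intermediate barcodes.

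The number of listed α subunits beside Itgb1 differed between the classes. Itga4 and Itga9, which also pair with β1, were not among the 7 listed and were not counted, nor were Itga2 and Itga10. Itga4 and Itga9 were found in intermediate barcodes, Itga4 and Itga10 in mural ones and Itga2 in endothelial ones of Tie2-GFP. The partners in these classes are thus counted short. Of 317 endothelial barcodes of Tie2-GFP with a UMI of Itgb1, 80.1% had at least 2 of the 7 listed α subunits and 2.21% had none. The share with at least 2 was 57.8% of 45 endothelial barcodes of NG2-DsRed, 44.4% of 81 mural barcodes, 42.3% of 71 and 10.5% of 19 intermediate barcodes of Tie2-GFP and NG2-DsRed. Median depth per barcode differed between these classes, and no barcode was thinned for these shares.

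The combinations of the listed α subunits were also counted, where alone means without another listed α subunit. Itga2, Itga4, Itga9 and Itga10 were not counted here either. The most frequent set beside Itgb1 in endothelial barcodes of Tie2-GFP was Itga1 with Itga6, in 77 of 317 barcodes (24.3%), then Itga1, Itga5 and Itga6 in 51 (16.1%) and Itga6 alone in 38 (12.0%). In those of NG2-DsRed it was Itga6 alone, in 7 of 45 (15.6%), then no listed α subunit in 5 (11.1%), with Itga1 and Itga6 in 4 (8.89%). In mural barcodes it was Itga1 with Itga7 in 23 of 81 (28.4%), Itga1 alone in 21 (25.9%) and Itga7 alone in 10 (12.3%). In intermediate barcodes it was Itgav alone, in 32 of 71 (45.1%) and 13 of 19 (68.4%), with Itga6 beside it in 16 of 71.

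**Figure D4:**
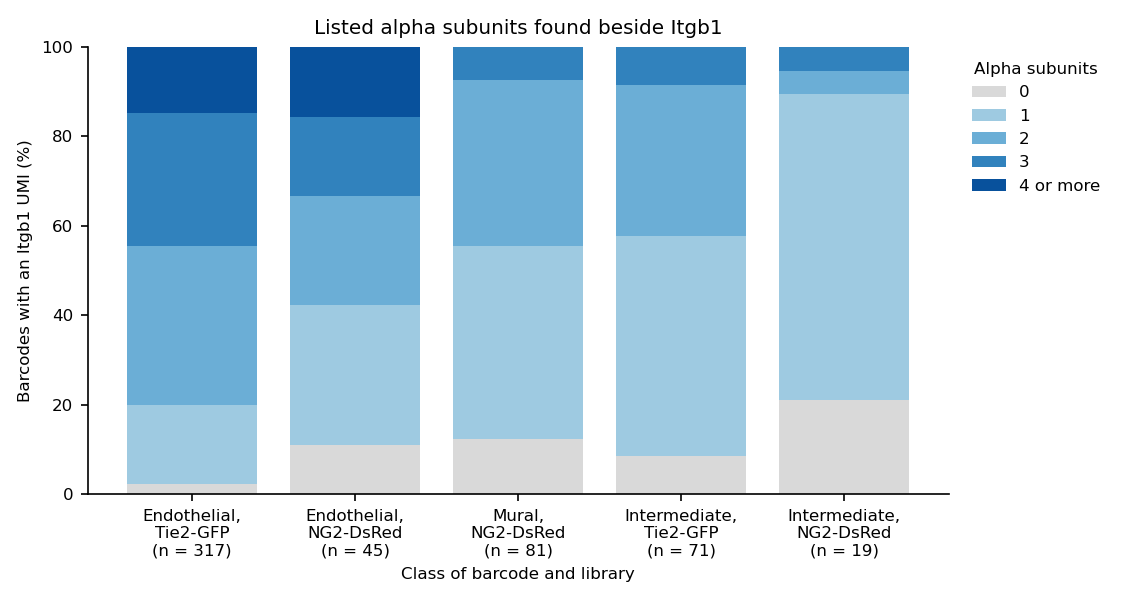
Number of listed α subunits found beside Itgb1 (stack colours, 0 to 4 or more) as a share of the barcodes with an Itgb1 UMI (%, vertical axis) in each class (horizontal axis, n given). At least 2 were found in 80.1% of endothelial barcodes of Tie2-GFP, 44.4% of mural barcodes and 10.5% of intermediate barcodes of NG2-DsRed.

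The summed UMIs of the 7 α subunits were 2.10 times (1.96 to 2.25) those of the 3 β subunits in endothelial barcodes of Tie2-GFP and 0.948 times (0.791 to 1.14) in those of NG2-DsRed. The ratio was 0.724 (0.613 to 0.854) in mural barcodes and 0.778 (0.669 to 0.902) and 0.625 (0.421 to 0.920) in intermediate barcodes. UMIs of different genes need not be captured alike, and the α sum was made of different genes in each class. Itga6 gave 57.4% of it in endothelial barcodes of Tie2-GFP, Itga1 59.1% in mural and Itgav 83.6% in intermediate barcodes of Tie2-GFP. The ratios are thus not strictly comparable, within or between classes. The α sums also leave out Itga2, Itga4, Itga9 and Itga10. Those of intermediate barcodes, where Itga4 and Itga9 were found, are thus short. On the listed subunits endothelial barcodes of Tie2-GFP stood above the others. In endothelial barcodes with at most 1 mural gene the ratio was 2.21 (2.05 to 2.38) in Tie2-GFP and 1.74 (1.10 to 2.80) in NG2-DsRed. Itgb1 gave 97.4% of the β UMIs in all endothelial barcodes of Tie2-GFP, 87.3% in all those of NG2-DsRed, where Itgb5 gave 12.7%, 78.2% in mural barcodes, where Itgb5 gave 21.6%, and 89.0% and 94.4% in intermediate barcodes.

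Within the mural class, 38 contractile barcodes (at least 2 of Acta2, Tagln and Myh11) were set against 50 barcodes with Kcnj8 or Abcc9 and at most 1 contractile gene. Of 4 members with enough UMIs, none was higher in contractile barcodes (10.1% of 2985 genes) and 2 were lower (12.2%). Itga1 was at 322 CPM in contractile and 651 CPM in Kcnj8/Abcc9 barcodes (log2 -1.02, -1.53 to -0.52), and Itga7 at 158 and 344 CPM (log2 -1.12, -1.86 to -0.41). Itgb1 was at 954 and 724 CPM (log2 0.40, 0.03 to 0.77) and Itgb5 at 234 CPM in both (log2 0.00, -0.71 to 0.72).

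Both ratios of the lower members lay close to the 2-fold limit, and 1 rather than 2 passed among barcodes of at least 2000 UMIs. Median depth was 3749 UMIs in contractile and 2604 UMIs in Kcnj8/Abcc9 barcodes. The pairs did not differ beyond their intervals: α1β1 was found in 60.5% (43.4 to 76.0) and 54.0% (39.3 to 68.2), and α7β1 in 47.4% (31.0 to 64.2) and 40% (26.4 to 54.8).

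Within the endothelial class of Tie2-GFP, 115 arterial-leaning barcodes were set against 29 venous-leaning ones, by at least 2 of Gja4, Gja5, Bmx, Sema3g, Hey1 and Vegfc or of Nr2f2, Slc38a5, Vcam1, Ackr1 and Selp and more of these than of the other set. None of 6 members was 2-fold higher (7.71% of 7458 genes) or lower (3.58%). The largest distance from 0 with an interval clear of it was that of Itga6, at 369 CPM in arterial- and 505 CPM in venous-leaning barcodes (log2 -0.45, -0.70 to -0.20). Itga1 at 210.0 and 242 CPM (log2 -0.21, -0.55 to 0.15), Itga5 at 59.0 and 62.5 CPM and Itgb1 at 413 and 364 CPM (log2 0.18, -0.09 to 0.46) had intervals that included 0. α1β1 was found in 55.7% (46.1 to 64.9) of arterial- and 82.8% (64.2 to 94.2) of venous-leaning barcodes, whose median depths were 8711 and 11188 UMIs, and in an expected 14.9% and 16.6% at 2000 UMIs. The mural rule genes summed to 1641 CPM in arterial- and 687 CPM in venous-leaning barcodes. In endothelial barcodes of Tie2-GFP, Itga6 was at 482 CPM with at most 1 mural gene and 303 CPM with at least 3. The part of mural RNA in the arterial to venous difference was not tested.

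**Figure D5:**
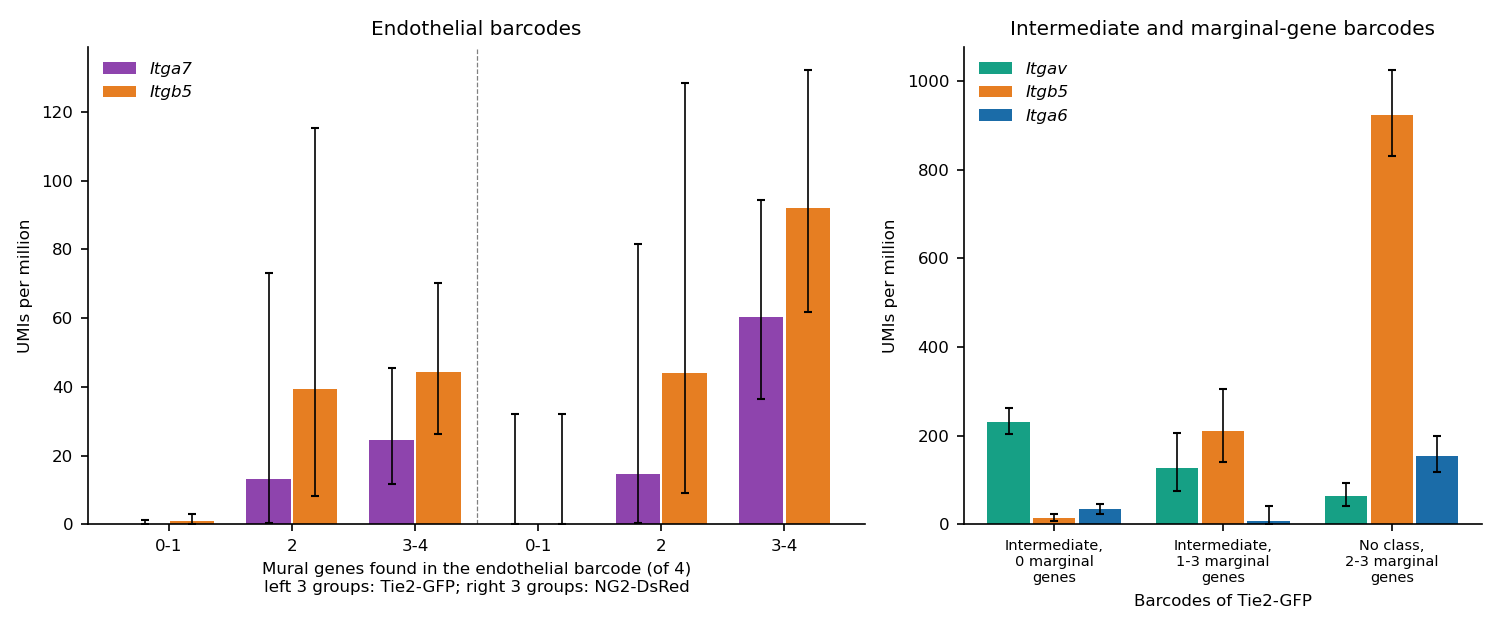
Levels in CPM (vertical axes) of Itga7 and Itgb5 in endothelial barcodes grouped by the number of mural genes found (left) and of Itgav, Itgb5 and Itga6 in barcodes of Tie2-GFP grouped by marginal cell genes (right), with exact 95% Poisson intervals. Itga7 was at 0 with at most 1 mural gene in both libraries, and Itgb5 reached 924 CPM in barcodes with at least 2 marginal genes that met no class rule.

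The rest of the integrin family added few subunits to the vascular classes. Of 16 other subunits, 3 had 20 UMIs over endothelial (Tie2-GFP) and mural barcodes, with 1 higher and 1 lower (18.4% and 24.1% of all genes): Itgb4 was higher at log2 1.93 (-0.64 to 7.27), on 1 mural UMI, and Itga10, a collagen receptor subunit, lower at -3.23 (-4.54 to -1.91). The third was Itga2, with 26 UMIs against 0. Itgb4, the partner of α6 in hemidesmosomes, was found in 8.42% of endothelial barcodes of Tie2-GFP and Itga10 in 10.6% of mural barcodes.

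In intermediate barcodes, Itga4 was found in 38.1% and 26.1% (48.9 and 44.9 CPM in Tie2-GFP and NG2-DsRed) and Itga9 in 33.3% and 39.1% (34.8 and 53.1 CPM). Both pair with β1, and both were at or under 4.87 CPM in endothelial barcodes, while in mural barcodes Itga4 was at 31.3 CPM and Itga9 had 0 UMIs. The leukocyte subunits Itgb2, Itgal, Itgam and Itgax had 0 UMIs in all 5 classes.

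Among 20 cytoplasmic partners of integrins, 16 had enough UMIs between endothelial (Tie2-GFP) and mural barcodes, and 4 were higher and 3 lower, beside 18.4% and 24.1% of all genes, with a median log2 ratio of -0.38 against -0.22 over all genes. Parvb, which links integrins to actin with Ilk, was at 139.8 CPM in endothelial and 0 UMIs in mural barcodes (at least 14.9-fold higher). The focal adhesion adaptor Pxn was at 76.7 and 9.38 CPM (log2 3.03, 1.47 to 5.32), and Lims2, a binding partner of Ilk, at 45.7 and 6.25 CPM (log2 2.87, 0.99 to 5.93). Within NG2-DsRed, Parvb was at least 7.5-fold higher, Pxn at log2 2.95 and Lims2 at 2.75.

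Of 18 matrix and latent TGF-β ligands, 16 had enough UMIs besides Vtn, which is part of the mural rule and is not read here, with 4 higher and 6 lower in endothelial barcodes, beside 18.4% and 24.1% of all genes. Their median log2 ratio was -0.75, against -0.22 over all genes. The laminin chains Lama2, Lamb1 and Lamc1 were farthest from 0, at log2 -5.06 (-5.73 to -4.44), -4.03 (-4.78 to -3.30) and -2.58 (-2.88 to -2.28). Their levels were 8.53, 8.22 and 78.3 CPM in endothelial and 285, 134 and 469 CPM in mural barcodes, and the ratios were -2.90, -2.74 and -1.76 within NG2-DsRed.

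Of 4 other laminin receptors, 3 had enough UMIs, none of these 3 was higher and 2 were lower in endothelial barcodes, beside 18.4% and 24.1% of all genes, with a median log2 ratio of -1.60. The proteoglycan Sdc4 was at 17.7 CPM in endothelial and 119 CPM in mural barcodes (log2 -2.75, -3.36 to -2.12), dystroglycan (Dag1) at 91.0 and 275 CPM (log2 -1.60, -1.94 to -1.24) and Bcam at 223 and 441 CPM (log2 -0.98, -1.24 to -0.71). Within NG2-DsRed the order of the 3 was the same, at -3.56, -1.19 and -0.82.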

How the data were processed

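Single cells of the stria vascularis were captured on the 10x Chromium 3′ platform in 2 libraries, Tie2-GFP and NG2-DsRed. Raw counts of UMIs for every gene and barcode were deposited. The submitters' processing notes name mm10 and bcl2fastq 2.20.0.422, and the matrix headers name Cell Ranger 7.0.0 (Tie2-GFP) and software version 3.0.0 (NG2-DsRed). Whether intronic reads were counted is not given in the sources used here, and it can shift levels between libraries. UMIs come from 3′ ends and were not scaled by length.

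Barcodes had 200 to 6000 genes and 200 to 30000 UMIs (Tie2-GFP) or 200 to 5000 genes and 200 to 20000 UMIs (NG2-DsRed). They had at most 40% ribosomal UMIs and, except intermediate barcodes, at most 5% mitochondrial UMIs. These limits are those of the study, which applied the mitochondrial limit to every cell. A barcode meeting 2 class rules was left out. Counts were summed per class and library and divided by all UMIs of the class, with exact Poisson intervals for levels, exact conditional binomial intervals for ratios and Clopper-Pearson intervals for shares. A count of 0 was given the limit of 3 counts, also where a ratio was counted or ranked. Folds given as at least a value use this limit and take the other class at its count, without its counting error. Expected shares at 2000 UMIs used the hypergeometric distribution. No test was possible with 1 library per line, and barcodes are not replicates.

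Doublets were not removed in the main values, whereas the study took out those that scDblFinder identified. As an alternative, the barcodes with the highest Scrublet scores (scanpy 1.11.5) were removed, 3 of 633 and 0 of 201. These numbers were set beforehand from an assumed rate of 0.8% per 1000 barcodes and are not doublet calls. Nothing could thus be removed from NG2-DsRed under this setting. The named genes are all 10 members and, per list, the 3 with the largest ratio of endothelial to mural barcodes, plus other subunits found in at least 10% of a class. The members, lists and rules were chosen with earlier results of these data known. Python 3.11.15, numpy 2.4.6, scipy 1.17.1 and pandas 2.3.3 were used, and gene positions are those of GENCODE M21 for GRCm38. The ratio with its interval and the thinning of pairs were tested on simulated counts, and the other steps were not.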

Additional observations from a re-analysis of the deposited data

Results flagged for a closer look

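Itgb5 went in opposite directions in the 2 libraries between intermediate and endothelial barcodes. The log2 ratio was 2.29 in Tie2-GFP (35.6 against 7.31 CPM) and -1.98 in NG2-DsRed (16.3 against 64.3 CPM), and the difference between libraries was not tested. Mural genes moved with the endothelial level and marginal cell genes with the intermediate level, and their part in the reversal was not tested.

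A second value came from barcodes that no class holds. In 35 barcodes of Tie2-GFP with at least 2 of the marginal cell genes Kcnq1, Kcne1 and Esrrb and no class rule met, Itgb5 was at 924 CPM (830.3 to 1026) on 353 UMIs, above the 7.85 CPM that a count of 0 allows there.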

How the results depend on the processing

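Over the alternatives tried, 323 of 342 ratios of single subunits and shares of single pairs stayed within their counting interval. The other 19 moved out of it, 8 of them under the mitochondrial limit for intermediate barcodes, and 0 changed direction. A change of direction was counted only for ratios of at least 2-fold. The intermediate to endothelial ratio within NG2-DsRed, where Itgb5 went the other way, was not among the alternatives. Several alternatives left some classes unchanged, so part of these values could not move. Of 175 counts of subunits or pairs, 153 stayed within 1.5 times the value in the report. The counts of pairs were lower after thinning and under stricter minima, and stayed between 2 and 4 in mural barcodes under every setting. Requiring 2 UMIs of each subunit left 3 pairs in endothelial barcodes of Tie2-GFP, 2 in those of NG2-DsRed and 1 in intermediate barcodes of Tie2-GFP. Thinning to 2000 UMIs left 2, 1 and 1 in the same order, and thinning to 1000 UMIs 1, 0 and 0, with 0 in intermediate barcodes of NG2-DsRed. A minimum share of 25% left 3, 2 and 2, and one of 5% gave 3 in intermediate barcodes of NG2-DsRed. The mitochondrial limit left 7 intermediate barcodes of NG2-DsRed, with 2 pairs and 4 subunits at 10% or more. Among 7 barcodes a single one passes 10%, and no share over all genes was computed there, so these higher counts carry no reading. With endothelial barcodes of NG2-DsRed, 1 subunit was higher and 3 were lower than in mural barcodes. Without quality limits, 1 subunit passed 2-fold in the endothelial and 1 in the mural subdivision. Among alternatives chosen after seeing the data, barcodes of at least 2000 UMIs gave 1 in the mural subdivision, and intermediate barcodes without marginal genes gave 1 subunit higher than in endothelial barcodes. No paired analysis was possible because each reporter line is 1 library.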

Other observations

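The 35 barcodes of Tie2-GFP with at least 2 marginal cell genes and no class rule met had an integrin profile unlike that of the classes described above. Marginal cells are the epithelial cells of the SV that secrete potassium into the endolymph. Itgb5 was found in 85.7% of these barcodes and gave 83.1% of the UMIs of the 3 listed β subunits, with Itgb1 at 188 CPM. Of the α subunits, Itga6 was at 154 CPM, Itgav at 62.8 CPM and Itga5 at 44.5 CPM, and Itga1 had 2 UMIs. All 15 barcodes with a UMI of Itgav also had one of Itgb5, so αvβ5 was found in 42.9% (26.3 to 60.6) of the 35. The product of the single shares was 36.7% for αvβ5. In the same barcodes α6β1 was found in 45.7% and αvβ1 in 37.1%. The marginal cell genes summed to 2888 CPM there, macrophage genes had 0 UMIs, and the median mitochondrial share was 20.2%, above the limit applied to the vascular classes.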
